A study of Homo sapiens with 4 samples.

Results

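The alpha and beta globin loci are the 2 gene clusters that encode the chains of haemoglobin, and the binding of GATA2 at both was described from the peaks of asynchronous and mitotic K562 cells. The peaks were those that share at least 1 base with the span of the beta globin genes (HBB, HBD, HBG1, HBG2 and HBE1, on chromosome 11) or of the alpha globin genes with NPRL3 (HBZ, HBA2, HBA1 and NPRL3, on chromosome 16), each span being extended by 50 kb on both sides. This gave 23 of the 31777 asynchronous peaks, 13 at the beta and 10 at the alpha locus, and 0 of the 1648 mitotic peaks. K562 is an established human cell line from a chronic myeloid leukaemia. It can be pushed towards the erythroid lineage and is known to express embryonic and fetal globins rather than adult beta globin. Both conditions used unmodified K562 cells that were fixed first with disuccinimidyl glutarate and then with formaldehyde, and an antibody to endogenous GATA2. The asynchronous cells were untreated. The mitotic cells had been arrested with nocodazole and sorted by staining for MPM-2, a phosphorylation mark of mitosis, and the cells of several sorts were pooled before the ChIP. Each condition has 1 GATA2 library, so no difference between the conditions has a replicate check and no test between them was made. The peak lists hold positions without height or p-value, and the depth of the libraries is unknown.

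GATA2 is a zinc finger transcription factor of blood stem and progenitor cells, and it recognises the same core sequence as GATA1, which takes over in erythroid cells. Each globin cluster has its genes in the order of their use in development and is controlled by distant enhancers, which were found as sites hypersensitive to nuclease. The beta cluster has its locus control region upstream of HBE1, with the sites HS1 to HS5. The alpha cluster is controlled by sites upstream of HBZ, named for their distance from it (HS-48, HS-40, HS-33, HS-10 and HS-8), several of which lie in introns of NPRL3. HS-40 is the strongest known alpha globin enhancer. NPRL3 itself encodes a subunit of GATOR1, an inhibitor of mTORC1 signalling.

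In asynchronous cells GATA2 peaks were matched to 9 of the 10 known control sites that were looked up. The sites were matched to peaks by their known distances in kb from the start of HBE1 or HBZ, with a tolerance of 1.5 kb. Matched peaks are called peaks at these sites below, and overlap with the sites themselves was not checked. The sequences below are hg38 reference sequence of the plus strand, 240 bases centred on the midpoint of the peak. They are shown as examples of GATA2 peaks matched to known control sites of both clusters. Capitals mark matches to the GATA strings (AGATAA with its variant AGATAG, and TGATAA with its variant TGATAG), to the AP-1 core (TGACTCA and, as its reverse complement, TGAGTCA, which is also the core bound by NF-E2) and to the CACCC strings bound by KLF factors (CACACCC, then CGCACCC, and finally CCCACCC), on either strand. A match that overlaps an earlier one of the same set was neither counted nor capitalised, which applied to 1 match in the 23 peaks, a second CACCC match at HS3.
HS2, chr11:5280613-5280852: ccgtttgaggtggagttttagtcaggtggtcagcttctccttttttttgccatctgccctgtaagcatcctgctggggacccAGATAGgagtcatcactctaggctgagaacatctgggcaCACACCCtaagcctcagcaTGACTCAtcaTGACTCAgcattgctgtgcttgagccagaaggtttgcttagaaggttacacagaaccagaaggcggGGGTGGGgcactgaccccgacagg
HS3, chr11:5284738-5284977: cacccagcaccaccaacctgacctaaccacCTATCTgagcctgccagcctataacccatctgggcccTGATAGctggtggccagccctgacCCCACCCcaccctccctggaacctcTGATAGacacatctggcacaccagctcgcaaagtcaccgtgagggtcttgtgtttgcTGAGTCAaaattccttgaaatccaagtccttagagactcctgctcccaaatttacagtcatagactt
HS4, chr11:5288148-5288387: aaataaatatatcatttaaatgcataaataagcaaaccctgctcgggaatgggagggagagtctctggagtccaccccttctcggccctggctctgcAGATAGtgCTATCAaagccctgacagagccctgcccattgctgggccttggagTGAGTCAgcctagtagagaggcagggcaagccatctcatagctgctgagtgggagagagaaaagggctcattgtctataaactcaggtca
HS-33, chr16:119980-120219: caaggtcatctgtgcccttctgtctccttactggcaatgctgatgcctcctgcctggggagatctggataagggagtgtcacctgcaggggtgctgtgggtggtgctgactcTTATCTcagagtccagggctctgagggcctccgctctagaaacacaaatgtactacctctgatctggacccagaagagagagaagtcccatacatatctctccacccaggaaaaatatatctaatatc

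At the locus control region, 4 asynchronous peaks lay in a row upstream of HBE1 with gaps of 4374, 3641 and 2910 bp between them. The peak at HS1 was 527 bp wide and had its midpoint 5960 bp upstream of the start of HBE1. The peak at HS2, the element with the strongest classical enhancer activity of the region, was 381 bp wide (5280543 to 5280923) and centred 10788 bp upstream. HS3 had the widest of the 4 peaks, with 587 bp (5284565 to 5285151) at 14913 bp upstream, and HS4 a peak of 413 bp (5288062 to 5288474) at 18323 bp upstream. No asynchronous peak was found at HS5, which is known for binding CTCF at the outer border of the region, and the next peak lay 46701 bp beyond HS4. The median asynchronous peak of the whole list was 378 bp wide, so the peaks at HS1, HS3 and HS4 were wider than the median and the peak at HS2 was close to it. In the annotation these 4 peaks lie in intron 6 of the canonical transcript of a readthrough gene, ENSG00000239920, and outside the canonical transcripts of the globin genes.

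**Figure D1:**
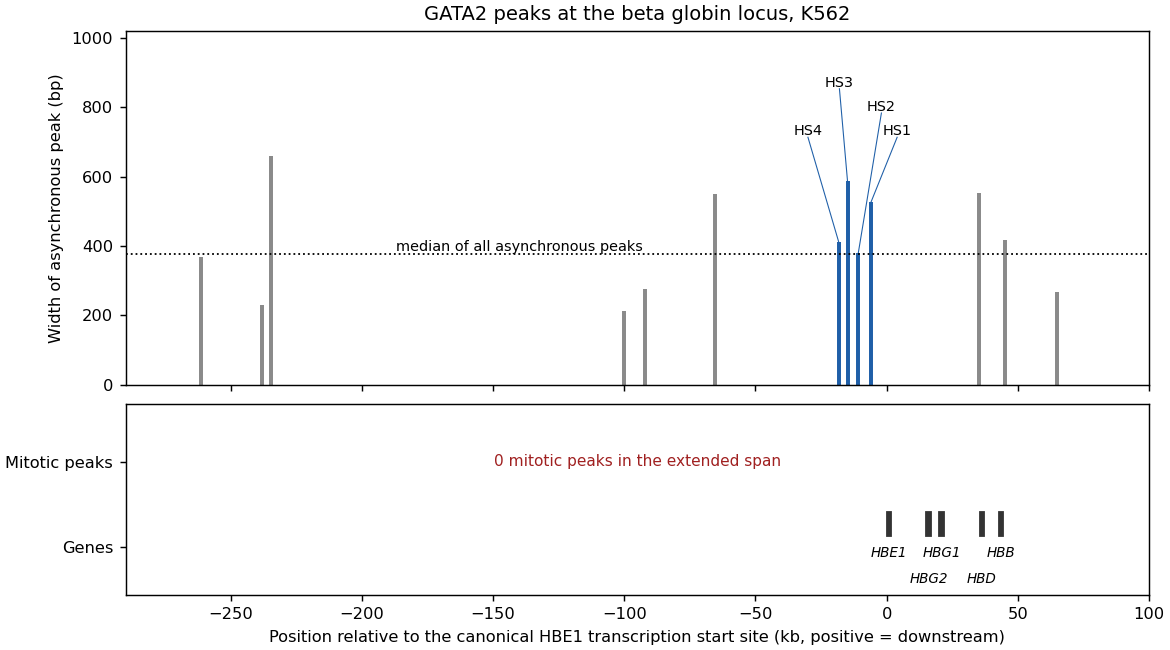
Asynchronous GATA2 peaks at the beta globin locus, as lines whose height is the peak width in bp, by distance in kb from the start of HBE1, above the canonical transcripts of the globin genes and the mitotic list. The peaks at HS1 to HS4 (blue) stand within 20 kb upstream of HBE1, with widths of 381 to 587 bp, and there is no mitotic peak.

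Within the beta globin genes, HBD was the only one with an asynchronous peak at its canonical start. HBD (ENSG00000223609) encodes the delta chain of the minor adult haemoglobin, and its peak of 552 bp (5234324 to 5234875) covered the transcription start site at 5234483. The peak held 2 GATA and 2 AP-1 matches. Of these, 1 GATA and 1 AP-1 match lay in the 200 bases below, on the minus strand of chr11:5234534-5234733 in the direction of transcription, which are printed from the RefSeq promoter (GRCh38.p14) to show the only beta globin promoter under a peak.
HBD promoter: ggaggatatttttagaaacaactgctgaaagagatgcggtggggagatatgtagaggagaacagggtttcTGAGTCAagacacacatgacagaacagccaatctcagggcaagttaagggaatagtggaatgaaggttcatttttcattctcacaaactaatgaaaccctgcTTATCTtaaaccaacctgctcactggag
Of the 35116 RefSeq promoters in the table, 8769 held a GATA match and 1738 (4.95%) an AP-1 match. HBD and NPRL3 were the members matched in the RefSeq promoter table, and HBB, HBG1, HBG2, HBE1, HBZ, HBA1 and HBA2 were not.

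HBB (ENSG00000244734), the gene of the adult beta chain, had its nearest asynchronous peak 2168 bp downstream of its start, beyond its 3′ end. That peak was 416 bp wide (5224488 to 5224903), held 2 GATA matches and lay over exon 1 of an unnamed transcript, ENSG00000285498. HBE1 (ENSG00000213931), the embryonic epsilon chain, had its nearest peak at HS1, 5697 bp upstream. The fetal gamma chain genes were farther away. The nearest peak to HBG1 (ENSG00000213934) was 14982 bp downstream and to HBG2 (ENSG00000196565) 19906 bp downstream, in both cases the peak at HBD. For comparison, the median protein-coding gene had its nearest asynchronous peak at 23688 bp, and 9.39% of the 20033 protein-coding genes had one within 1 kb.

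HBG2 and HBE1 also have annotated transcripts that start far upstream, among olfactory receptor genes, and the span of the rule reaches there. An asynchronous peak of 661 bp (5504358 to 5505018), the widest of the beta locus, lay 586 bp from the distal start of HBE1 and 234413 bp from its canonical start. It held 2 GATA matches and an ETS match. A peak of 549 bp near OR51B5 (5335176 to 5335724) held 3 GATA matches, and a peak of 275 bp near OR51B6 (5362091 to 5362365) held 4, or 14.5 per kb, the highest density of the 23 peaks. OR51M1 was the nearest coding gene to a peak of 213 bp without a GATA match, and UBQLNL to the outermost peak of 368 bp. Downstream of the cluster a peak of 266 bp near OR51V1 held no match to any of the strings. With the span drawn over the canonical transcripts only, the beta locus held 7 asynchronous peaks instead of 13, and the 6 that dropped out all lay upstream of the locus control region.

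At the alpha locus, the widest asynchronous peak stood at HS-40. It lay in intron 5 of NPRL3, with a width of 911 bp that was at percentile 97.5 of all asynchronous peaks, and its midpoint was 39041 bp upstream of the start of HBZ. It held 3 GATA and 2 AP-1 matches. HS-33, in intron 3 of NPRL3, had a peak of 598 bp (119802 to 120399, percentile 84.1) with 2 GATA matches. HS-48, in intron 7, had a narrow peak of 226 bp (104985 to 105210, percentile 15.3) with a single GATA match. A further peak of 258 bp (94962 to 95219) with 2 GATA matches lay in intron 9. NPRL3 (ENSG00000103148) thus held 4 asynchronous peaks within its canonical transcript, while the nearest peak to its canonical start was 4310 bp upstream. The peak at HS-33 lay 397 bp from another annotated start of NPRL3.

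Between NPRL3 and HBZ there were peaks at HS-10 (142983 to 143440, 458 bp) and HS-8 (144765 to 145296, 532 bp), 1324 bp apart. The peak at HS-10 lay 255 bp from the start of a longer annotated HBZ transcript, and the peak at HS-8 held 4 GATA matches. A narrower peak of 236 bp without a GATA match (149408 to 149643) lay 3001 bp upstream of the start of HBZ. HBZ (ENSG00000130656), which encodes the embryonic zeta chain, had a peak of 326 bp over its start (152548 to 152873) with 3 GATA matches. The adult alpha chain genes HBA2 (ENSG00000188536) and HBA1 (ENSG00000206172) had no peak near them. The peak over HBZ was their nearest, 20003 and 23807 bp upstream, and from there to the end of the extended span, 74649 bp further, no asynchronous peak was found. The other 2 peaks of the locus (41048 to 41360 and 42077 to 42540) lay beyond NPRL3, with POLR3K as the nearest coding gene. All 10 peaks also fell in the span drawn over the canonical transcripts.

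**Figure D2:**
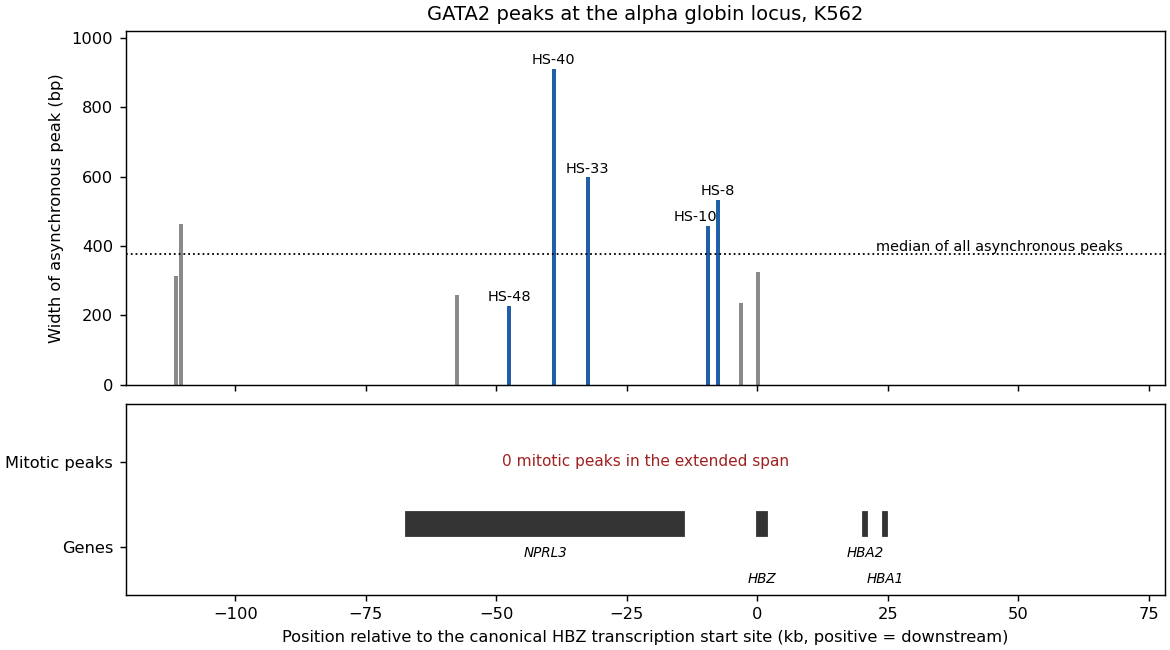
Asynchronous GATA2 peaks at the alpha globin locus, as lines whose height is the peak width in bp, by distance in kb from the start of HBZ, above the canonical transcripts and the mitotic list. The peak at HS-40 is the widest with 911 bp, no peak lies downstream of HBZ, and there is no mitotic peak.

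The density of asynchronous peaks was above that of the genome as a whole at both loci. There were 3.42 peaks per 100 kb at the beta and 5.17 at the alpha locus, against 1.03 over the genome. By gene, 7 asynchronous peaks lay within 50 kb of the starts of HBG1, HBG2 and HBZ, 8 for NPRL3, 6 for HBE1, 5 for HBD and 4 for HBB, HBA2 and HBA1, while the median protein-coding gene had 1. Of all protein-coding genes, 18.7% had at least 4 and 2.12% at least 8. The windows of neighbouring genes hold the same peaks, so these counts are not independent. The other genes of the clusters fell in the same range. HBBP1, a pseudogene, and BGLT3, a noncoding RNA gene, both between HBD and HBG1, had 7 peaks within 50 kb. The pseudogene HBZP1 had 6, HBM and the pseudogene HBAP1 had 5 and HBQ1, which encodes the theta chain, had 4. None of these 6 had a peak within 1 kb of its canonical start.

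None of the 23 asynchronous peaks shared a base with a mitotic peak, while 5.04% of all 31777 asynchronous peaks did (1600 peaks, here called bookmarked). The share was 4.79% on chromosome 11 and 5.59% on chromosome 16. A count of 0 of 23 peaks allows a share of up to 13.0% (3 counts of the total, counting error only), which is above the share of the whole list, so a lower share at the globin loci was not detectable with this number of peaks. The limit was 23.1% for the 13 peaks of the beta and 30.0% for the 10 peaks of the alpha locus.

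The nearest mitotic peaks were far from both clusters. On chromosome 11 they lay 2871542 bp before the beta span, near TSPAN32 (2303691 to 2303922), and 2650617 bp after it, with RIC3 as the nearest coding gene (8206269 to 8206690). On chromosome 16 no mitotic peak lay between the start of the chromosome and the alpha span, and the first after it (1832614 to 1833210) was 1605092 bp away, near FAHD1. The globin genes of the beta cluster were 2923 to 2951 kb from a mitotic peak, and between 8.19% and 8.31% of protein-coding genes were farther away. The alpha locus members were 1656 to 1694 kb away, with 18.2% to 18.7% of genes farther. The median protein-coding gene was 487554 bp from a mitotic peak. The list is sparse, with 0.534 mitotic peaks per Mb of genome, and 8.22% of protein-coding genes had a mitotic peak within 50 kb of their start.

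Wide peaks were bookmarked more often in the whole list, and several globin peaks were wide. Of the 804 asynchronous peaks at least as wide as that at HS-40, 280 were bookmarked, which is 34.8%. The corresponding shares were 20.2% for peaks at least as wide as HS-33, 19.7% for HS3, 17.0% for HS-8 and 16.6% for HS1, and 1181 of the 6569 peaks at least as wide as that at HBD were bookmarked. For peaks at least as wide as those at HS-10, HS4 and HS2 they were 13.0%, 11.0% and 9.75%, and for HS-48 5.91%. Each of these shares also counts all wider peaks and is not the share at that width. Across the 23 peaks the median width was 413 bp (quartiles 270.5 and 540.5 bp), and 13 were at or above the median of the list. The 9 peaks at control sites ran from 226 to 911 bp with a median of 527 bp, and the 14 others from 213 to 661 bp with a median of 319.5 bp. Genes in dense windows had a mitotic peak more often as well. Among the 342 protein-coding genes with exactly 7 asynchronous peaks within 50 kb, as at HBG1, HBG2 and HBZ, 117 (34.2%) had a mitotic peak in the window, and among the 217 with 8, as at NPRL3, 82 (37.8%) did. The share was 17.4% for genes with 4 peaks, as at HBB, HBA2 and HBA1. It was 24.4% for genes with 5, as at HBD, and 29.7% for genes with 6, as at HBE1. Neighbouring members share windows, so these shares do not give a separate comparison for each gene.

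**Figure D3:**
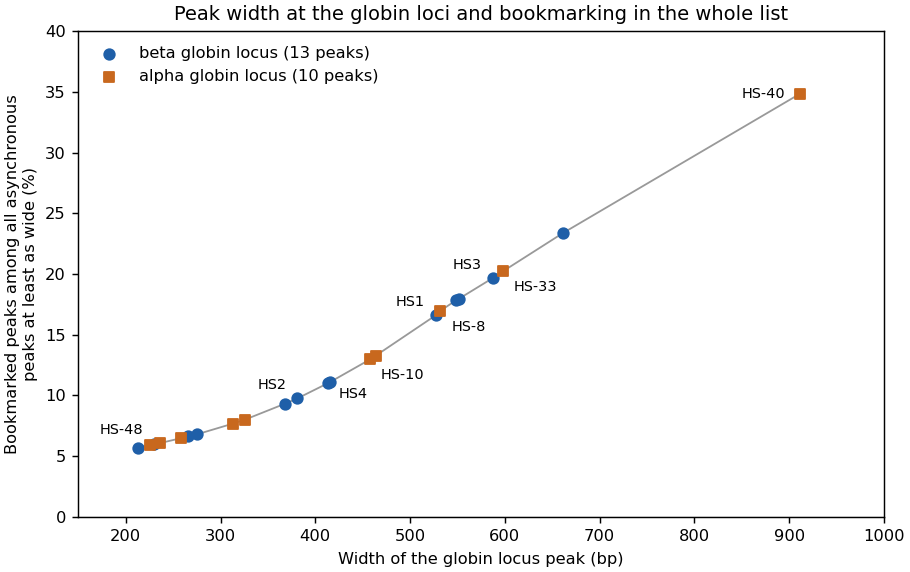
Width in bp of each of the 23 globin locus peaks, against the percentage of bookmarked peaks among all asynchronous peaks of the series that are at least as wide. None of the 23 peaks is bookmarked. In the whole list the share is 34.8% among peaks at least as wide as that at HS-40, the widest of the 23.

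A GATA match was found in 20 of the 23 peaks, or 87.0% (95% exact binomial interval 66.4% to 97.2%), against 93.0% of all asynchronous peaks. All 9 peaks at control sites held one, 2.22 ± 1.20 matches on average (mean ± SD, n = 9 peaks), and so did 11 of the other 14, where the average was 1.79 ± 1.19 (n = 14 peaks). The 3 without a match were those near OR51V1 and OR51M1 and the peak 3001 bp upstream of HBZ. AP-1 matches were found in 5 peaks, at HS2, HS3, HS4, HS-40 and HBD, which is 21.7% (7.46% to 43.7%) against 13.0% of all asynchronous peaks, so the difference was within the counting error. In the HS2 sequence above the 2 AP-1 matches begin 10 bases apart (5280753 and 5280763). The nearest GATA and AP-1 matches were separated by 52 bases at HS2, 51 at HS3, 39 at HS4, 12 at HS-40 and 22 at HBD. In the 3838 asynchronous peaks of the series with both, the median separation was 44 bases (quartiles 19 and 92), and 7.84% of these peaks were bookmarked.

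The composite of GATA and an E-box part, CTG and GATAA with 8 bases between them, is the site of the TAL1 complex with GATA factors. It was found at HS-33 (120092 to 120107) and at HS-8 (145263 to 145278) and in no peak of the beta locus. This is 8.70% of the 23 peaks (1.07% to 28.0%), against 8.55% of all asynchronous peaks, and of the asynchronous peaks with the composite 9.46% were bookmarked. CACCC strings were found in 6 of the 23 peaks, or 26.1% (10.2% to 48.4%), against 20.1%. They occurred at HS2, HS3, HS-10, the start of HBZ, the peak downstream of HBB and the peak near OR51B6. RUNX (AACCACA) and ETS (AGGAAGT) strings were found in 2 and 3 peaks, against 13.6% and 14.9% of all asynchronous peaks, and in none at a control site. A match to a string is a description of the sequence and does not show which factor is bound.

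**Figure D4:**
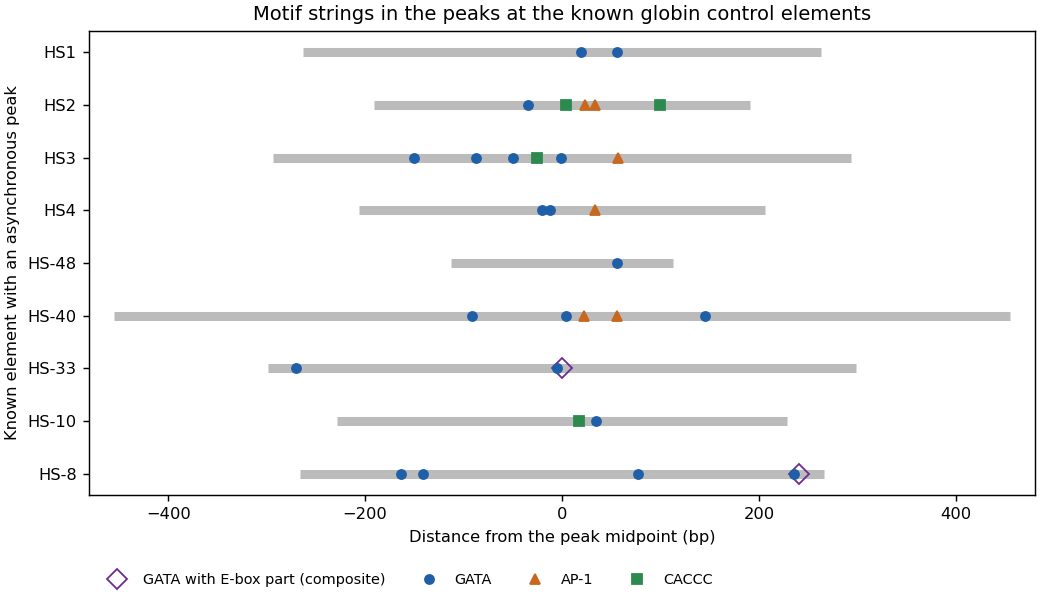
Matches to the GATA, composite, AP-1 and CACCC strings in the 9 peaks at known control sites, by distance in bp from the midpoint of the peak (grey bar, to scale). AP-1 matches occur at HS2, HS3, HS4 and HS-40 only, and composites at HS-33 and HS-8 only.

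The gamma and the alpha chain genes are duplicated, and the peaks rest on uniquely mapped reads. From start to end of the canonical transcript, introns included, HBG1 and HBG2 were identical at 97.8% of aligned positions and those of HBA1 and HBA2 at 96.4%. Within HBG1 and HBG2, 51.7% and 51.8% of windows of 75 bases, the read length, occurred once in hg38, and 85.1% did in the 1 kb upstream of each. Within HBA2 and HBA1 the shares were 37.0% and 37.6%, with 35.6% in the 1 kb upstream. HBZ had 48.8% within its transcript but 100% upstream, and its peak had 69.9%. Every window within HBB, HBD and HBE1 was unique, as were those in 21 of the 23 peaks. The members without a peak within 1 kb of the canonical start include HBA1, HBA2, HBG1 and HBG2, where part of the sequence cannot take unique reads. They also include HBE1 and HBB, where all of it can, and NPRL3, with 97.8% of windows unique within its transcript. The part of sequence that is not unique in the missing peaks was not tested.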

How the data were processed

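The members and motif lists were chosen with earlier results of these data known. The deposited files used here are peak lists of 3 columns (chromosome, start and end in hg38), 1 per condition. To make these deposited positions the authors aligned single-end reads with BWA 0.7.12, kept uniquely mapped reads, called peaks with MACS2 2.1.0 and Genrich 0.6.1 and removed blacklisted peaks. How both callers and the inputs were combined is not given in the sources used here, and the input libraries were not analysed. The lists hold no depth, and the number of called peaks depends on it. The rule used gene records of GENCODE release 44. Starts of genes are those of the canonical transcript, and positions are printed with the first base as 1. Strings were searched on both strands. Windows of 75 bases were counted by exact match over the primary chromosomes. Intervals are exact binomial, while the limits given for a count of 0 are 3 counts of the total. The genes named are the 9 members, other globin genes and the nearest coding gene of each peak. Some sequences and 1 neighbouring gene are not reported here. Steps were tested on simulated data. Python 3.11.15, pandas 2.3.3, scipy 1.17.1, pysam 0.24.0 and Biopython 1.88 were used.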

Additional observations from a re-analysis of the deposited data

How the results depend on the processing

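Of the 13 alternatives on results other than mitotic or bookmarked peaks, 9 left the result at or near its main value (counts within 1.5 times). Of the 20 on mitotic or bookmarked peaks, 14 could not give more than 0, since they only narrow an empty set, and say nothing of stability. The other 6, an extension of 100 kb and midpoints within 200 bp, gave 0 as well. The mitotic peak nearest to a span was 1605092 bp away from it. The outcome of these 6 was thus also fixed and says nothing of stability. The extension of 100 kb for bookmarked peaks was chosen after seeing the data. The asynchronous count at the beta locus fell to 7 with canonical transcripts. The members with an asynchronous peak near the start numbered 2 within 1 kb of the canonical start, 4 within 5 kb and 5 within 1 kb of any annotated start. Over the globin genes without NPRL3, 69.4% of positions began a unique window of 75 bases and 65.2% one of 50 bases. This change was not counted among the 9, although the shares were within 1.5 times of each other. No paired analysis was possible because each condition has 1 library. Width is the only measure of a peak besides its position in these lists, and whether it follows the strength of binding was not tested. A site without GATA2 cannot be told apart from one under the limit of detection.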

Other observations

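Outside the clusters, 3 further globin genes and AHSP were looked up. AHSP, the chaperone of free alpha chains, had 2 asynchronous peaks within 50 kb of its start, the nearest 7744 bp downstream and 612 bp wide. MB, which encodes myoglobin, had 3, the nearest at 12137 bp. NGB (neuroglobin) had 1, and CYGB (cytoglobin) had 0, with its nearest peak at 63900 bp. None of these genes had a mitotic peak within 50 kb.

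Just outside the extended spans, the next asynchronous peaks were 15003 bp before and 1247 bp after the beta span, with widths of 223 and 259 bp, and 8026 bp after the alpha span, with a width of 247 bp. The outermost peaks inside lay 29439 and 24250 bp from the borders of the beta span and 6777 and 74649 bp from those of the alpha span.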
